A study of Canis lupus familiaris with 20 samples.

Results

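Reactive glia were followed in dog retina through 8 genes that mark them: the intermediate filament genes GFAP, VIM, NES and DES, the secreted proteins CHI3L1 and LGALS3, and the membrane proteins PDPN and CD44. Probes were taken where the array's gene name was a listed gene or where the probe description named it. This gave 12 probes for 7 of the 8 genes, out of 43603 distinct probes on the array. NES, the progenitor filament nestin, had no probe under this rule and was not analysed here. Of the 12 probes, 11 were well above the local background on at least 4 of the 5 arrays of a group and entered the tests. The probe with the highest mean signal stood for its gene.

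The samples were 20 retinas of 10 dogs, each measured on its own single-colour array, in 4 groups of 5. Right eyes received 12 µg of intravitreal ciliary neurotrophic factor (CNTF), a cytokine that acts through gp130 receptors and STAT3, and left eyes received phosphate-buffered saline (PBS). Retinas were collected 1 week later. The groups were CNTF eyes and PBS eyes of dogs homozygous for a missense mutation of CNGB3 (CNGB3m/m), which encodes a subunit of the channel that cyclic GMP opens in cones, and CNTF eyes and PBS eyes of normal dogs. Of the mutant dogs 3 were female. The normal dogs were all male, and 4 were carriers (CNGB3+/m) and 1 was homozygous wild type (CNGB3+/+). The sample labels give 10.7 to 11.5 weeks of age for mutants and 8.9 weeks for normal dogs, whereas the design text gives ages in months, so age was not used. The dogs came from a research colony with a shared genetic background, and both eyes of a dog were paired in the tests of CNTF.

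In the vertebrate retina the main glia are Müller cells, which span the tissue, and astrocytes, which lie along the nerve fibres. Vimentin is the usual filament of resting Müller cells, and GFAP is strong in astrocytes and is made by Müller cells when they react to injury or to cytokines. Desmin is the filament of muscle cells, CHI3L1 and galectin-3 are secreted by macrophages and other reactive cells, and podoplanin and CD44 link the membrane to the cytoskeleton through ezrin family proteins. Several of these genes are also active in microglia, vessels or connective tissue, so none of them belongs to glia alone.

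Values are log2 signals relative to the 75th percentile of the array, so that 0 is the 75th percentile and a difference of 1 is a doubling of signal. That percentile lay between 291.0 and 592.5 intensity units, and 52.2 to 71.9% of probes were above background per array. Levels of different probes are not compared, since probes differ in brightness. Changes are log2 differences ± standard error from limma's moderated linear model over 5 dogs a group, and a change was called at a Benjamini-Hochberg adjusted p under 0.05 over all probes tested. Rod, cone and inner retinal genes were measured as a check of the tissue. All 9 on the list passed the background filter, with array means of 0.33 to 0.58 in CNTF mutant, 1.36 to 1.69 in PBS mutant, -0.18 to 0.58 in CNTF normal and 1.48 to 1.76 in PBS normal eyes, so the list was lower in CNTF eyes without overlap. Arrays lay on 5 slides of 4. Slide 1 held PBS normal dogs 1 to 4, slide 2 PBS normal dog 5 and PBS mutant dogs 1 to 3, slide 3 CNTF normal dogs 1 and 2 and PBS mutant dogs 4 and 5, slide 4 CNTF normal dogs 3 to 5 and CNTF mutant dog 1, and slide 5 CNTF mutant dogs 2 to 5. No slide held both eyes of a dog, so treatment can be set against slide only within slide 3, where it runs together with genotype.

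Sequences are shown for the probes on which the results turn, 5′ to 3′ as in the array files. The GFAP probe and a DES probe are shown aligned because they share bases, and capitals mark the 36 of 56 aligned bases that match. The next most alike pair among the 12 probes shared 23 bases.
GFAP: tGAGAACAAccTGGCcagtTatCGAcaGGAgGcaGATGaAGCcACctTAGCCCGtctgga
DES, dimmer probe: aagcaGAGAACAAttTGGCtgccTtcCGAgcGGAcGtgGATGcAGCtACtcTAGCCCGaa
DES, main probe: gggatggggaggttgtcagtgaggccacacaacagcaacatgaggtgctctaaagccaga
VIM, main probe: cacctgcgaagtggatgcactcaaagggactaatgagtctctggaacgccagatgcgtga
CHI3L1: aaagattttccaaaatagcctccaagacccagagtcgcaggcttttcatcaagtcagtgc
PDPN, main probe: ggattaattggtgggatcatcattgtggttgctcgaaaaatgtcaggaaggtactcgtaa
The array files place these on the canFam2 build. The GFAP probe lies at chr9:21887233-21887486 on the plus strand, the DES probes at chr37:28934735-28934908 and chr37:28939288-28939553 on the plus strand, the VIM probe at chr2:22508722-22509131 on the minus strand, the CHI3L1 probe at chr7:3028148-3028970 on the plus strand and the PDPN probe at chr2:86452800-86452859 on the minus strand. Each probe is 60 bases long, and all but the PDPN probe are placed on a longer genomic span. Exons and untranslated parts were not assigned here. The VIM probe carries only a transcript identifier as its gene name in the files, and its description names a vimentin-like protein.

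The first comparison asks which of these genes CNTF changed. In mutant dogs the main probes of 5 of the 7 genes were called higher in CNTF eyes, GFAP, DES, CHI3L1, PDPN and LGALS3, where 11.6% of all probes tested were called higher. Their median change over the 7 was 1.36, also with CHI3L1 at the lower bound of its change, and that of all probes was -0.09. VIM and CD44 were not called in mutants. In normal dogs all 7 were called higher, with a background of 23.6%, a median change of 1.60, also with CHI3L1 at its bound, and a median of -0.09 over all probes. The groups did not overlap for 4 of 7 genes in mutants (background 6.88%) and for 6 of 7 in normal dogs (background 14.2%). GFAP and CHI3L1 passed the background filter only through CNTF groups, so their place in these counts depends in part on being high there. In whole retina, more cells of a type and more RNA per cell cannot be told apart.

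**Figure D1:**
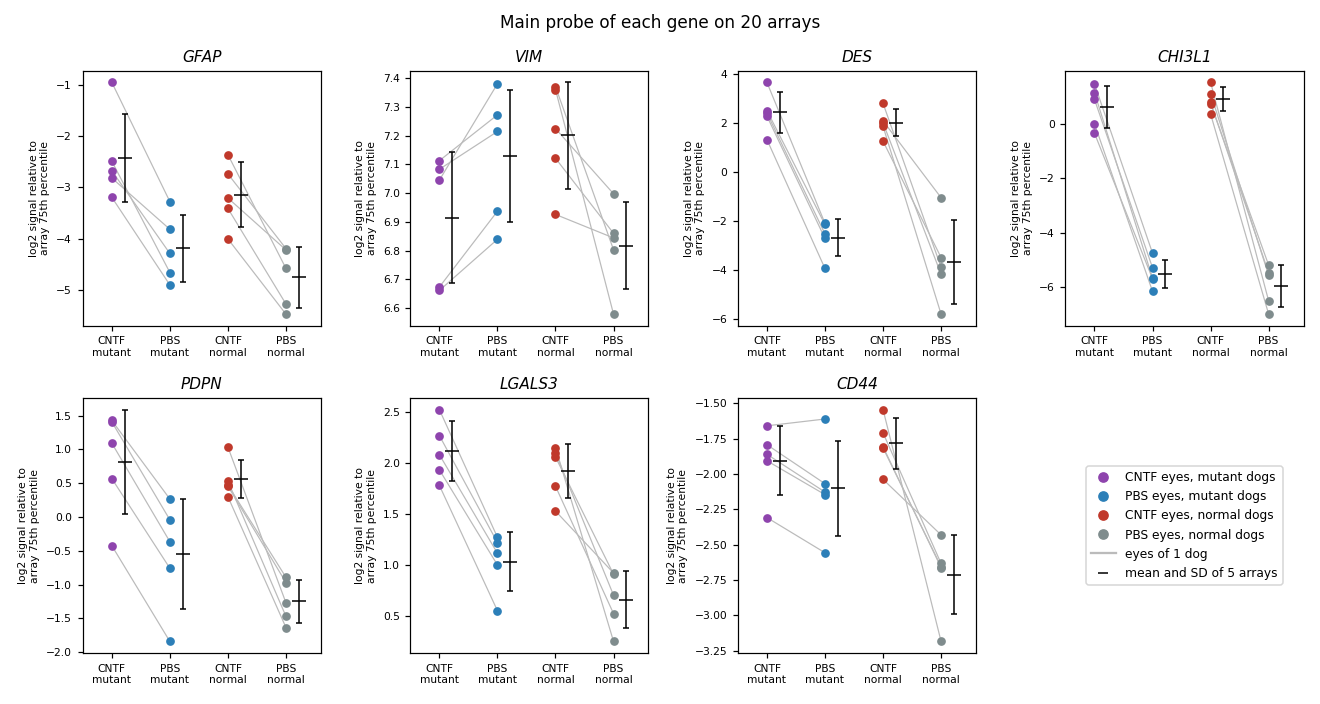
Log2 signal relative to the array's 75th percentile (vertical axes, scales differ) for the main probe of 7 genes in CNTF and PBS eyes of mutant and normal dogs. Points are arrays, grey lines join the eyes of a dog, and black marks give mean and SD of 5 arrays. DES and CHI3L1 part the treatments most widely, and the VIM lines slope oppositely in the genotypes.

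GFAP is the filament that most defines glial reactivity. In mutant dogs 1 to 5 its signal was -3.19, -2.49, -2.68, -0.95 and -2.82 in CNTF eyes, against -4.90, -4.66, -4.29, -3.28 and -3.82 in PBS eyes. In normal dogs it was -3.41, -4.004, -2.74, -3.21 and -2.36 in CNTF eyes, against -5.27, -5.47, -4.19, -4.22 and -4.58 in PBS eyes. The CNTF eye was higher in every dog and the groups did not overlap within either genotype. CNTF mutant dog 4 had the highest GFAP signal of all arrays, and its PBS eye was the highest of the PBS eyes. The change was 1.76 ± 0.20 in mutants (3.39-fold, limma adjusted p = 7.31e-05) and 1.60 ± 0.20 in normal dogs (3.04-fold, limma adjusted p = 0.000122). The probe was dim. It was above background on 13 of 20 arrays: 4 CNTF mutant, 2 PBS mutant, 4 CNTF normal and 3 PBS normal. Background-corrected intensities before scaling were 41.3 to 243 in CNTF mutant, 11.5 to 46.0 in PBS mutant, 30.0 to 68.9 in CNTF normal and 11.7 to 32.4 in PBS normal eyes. The size of the change is thus uncertain. With another background correction (normexp) the change was 1.03 in mutants and 0.78 in normal dogs, both still called.

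GFAP was also compared with slide taken into account. On slide 3, CNTF normal dogs 1 and 2 had -3.41 and -4.004, against -3.28 and -3.82 in PBS mutant dogs 4 and 5, a difference of -0.16. With slide as a block in place of the dog the change was -0.58 ± 0.85 in mutants and -0.20 ± 0.85 in normal dogs, neither called. With slide and dog both as blocks it was 1.91 ± 0.79 in mutants and 2.42 ± 0.79 in normal dogs, also not called. For every gene, the fit with slide in place of the dog is built from the differences within slides 2, 3 and 4. It is thus not separate from the slide 3 value. It also rests on the 1 PBS normal array of slide 2 or the 1 CNTF mutant array of slide 4. The sign of the GFAP change differed between these fits, and slide and treatment cannot be told apart fully in this design. The DES probe that shares bases with the GFAP probe had intensities of 264 to 772 in CNTF normal, against 9.498 to 65.0 in PBS normal eyes. Whether DES RNA adds to the GFAP signal was not tested.

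**Figure D2:**
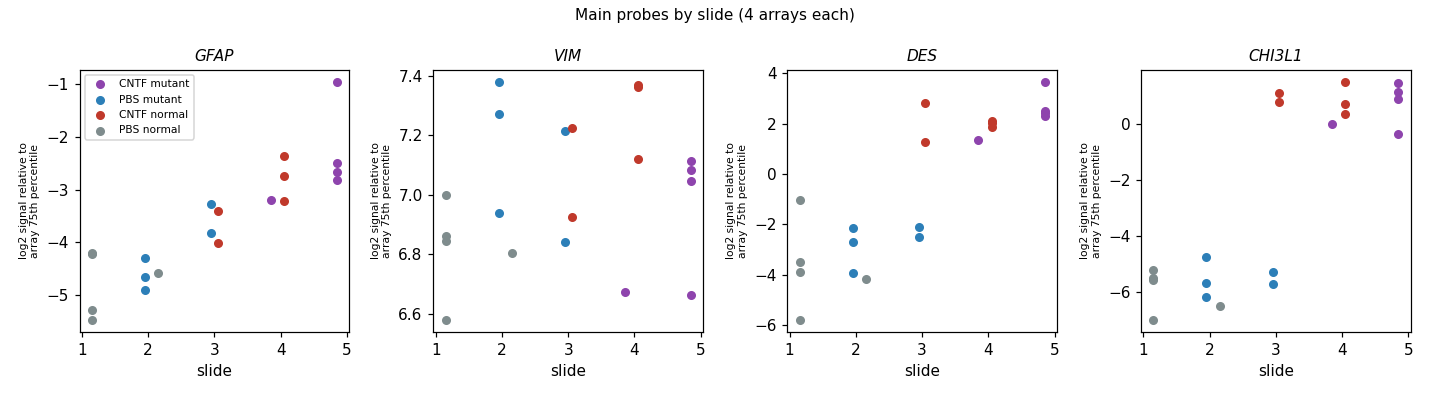
Log2 signal relative to the array's 75th percentile of the main probes of GFAP, VIM, DES and CHI3L1 by slide (horizontal axis), coloured by group. On slide 3 the 2 CNTF normal arrays lie among the PBS mutant arrays for GFAP (mean difference -0.16) but far above them for DES (4.34) and CHI3L1.

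Vimentin changed least of the 3 filaments measured. The main VIM probe of mutant dogs 1 to 5 read 6.67, 7.05, 7.11, 7.08 and 6.66 in CNTF eyes, against 6.94, 7.38, 7.27, 7.21 and 6.84 in PBS eyes. In normal dogs it read 6.93, 7.22, 7.36, 7.12 and 7.37 in CNTF eyes, against 6.84, 6.998, 6.58, 6.86 and 6.80 in PBS eyes. The CNTF eye minus the PBS eye was thus negative in 5 of 5 mutants, at -0.34 to -0.13, and positive in 5 of 5 normal dogs, at 0.08 to 0.78. Of all probes tested, 0.426% had this pattern. The groups overlapped within both genotypes. The change was -0.21 ± 0.11 in mutants (limma adjusted p = 0.167) and 0.38 ± 0.11 in normal dogs (1.30-fold, limma adjusted p = 0.0131).

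The VIM call in normal dogs was not stable. It was lost with quantile normalization (0.13), with normexp (0.27), in the deposited values (0.13), without normal dog 3 (0.28, limma adjusted p = 0.053) and without normal dog 5 (0.34, limma adjusted p = 0.0502). The probe was above background on 20 of 20 arrays and saturated on 2 of the 5 CNTF normal arrays, where intensities ran from 58640 to 73619, against 52144 to 66454 in PBS normal eyes. A second VIM probe at chr2:22506352-22506411, also above background on 20 arrays and saturated on none, changed by -0.26 ± 0.16 in mutants (limma adjusted p = 0.26) and by 0.51 ± 0.14 in normal dogs (limma adjusted p = 0.0141). It was lower in the CNTF eye of 4 of 4 mutants, with the value of PBS mutant dog 2 left out as an outlier spot, and higher in that of 5 of 5 normal dogs. Within slide 3 the main probe differed by 0.05 between CNTF normal and PBS mutant arrays, and a fit with slide in place of the dog gave -0.56 in mutants and 0.44 in normal dogs, neither called.

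Desmin, the muscle filament, had the largest change of the 3. The main DES probe of mutant dogs 1 to 5 read 1.33, 2.51, 2.29, 3.66 and 2.41 in CNTF eyes, against -3.93, -2.13, -2.70, -2.09 and -2.52 in PBS eyes. The normal dogs had values of 2.81, 1.26, 1.87, 2.09 and 2.01 in CNTF eyes, against -3.88, -3.48, -5.79, -1.04 and -4.16 in PBS eyes. The groups lay apart by more than 2 units in each genotype. DES rose by 5.11 ± 0.50 in mutants (34.6-fold, limma adjusted p = 2.25e-05) and by 5.68 ± 0.50 in normal dogs (51.2-fold, limma adjusted p = 8.88e-06). The probe was above background on 19 of 20 arrays, missing 1 PBS normal array. The PBS eye of normal dog 4 stood above the other PBS normal eyes, and the change without that dog was 6.32.

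The dimmer DES probe gave the same picture. It rose by 5.14 ± 0.38 in mutants (35.2-fold, limma adjusted p = 3.01e-06) and by 4.62 ± 0.38 in normal dogs (24.7-fold, limma adjusted p = 5.06e-06). It was above background on 13 arrays, among them all 10 CNTF arrays, 2 PBS mutant and 1 PBS normal arrays, so its PBS level is uncertain. It passed the background filter only through the CNTF groups. Here too the PBS eye of normal dog 4 was the highest of its group, at -3.05, and CNTF mutant dog 4 was the highest of all, at 1.81. With normexp the main probe's change was 3.88 in mutants and 4.11 in normal dogs. Within slide 3 the CNTF normal arrays exceeded the PBS mutant arrays by 4.34 on the main probe, and a fit with slide in place of the dog gave 3.68 in mutants and 5.58 in normal dogs, neither called.

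Other genes of muscle and vessel walls were counted beside desmin, as desmin is a marker of muscle and of pericytes. For all gene lists, the shares over all probes tested are 11.6% called higher and 17.3% called lower in mutants, and 23.6% called higher and 27.6% called lower in normal dogs. Of 8 pericyte and smooth muscle markers tested, 2 rose, 1 fell and 5 were not called in mutants (median -0.13), and 3 rose, 1 fell and 4 were not called in normal dogs (median 0.14). TAGLN, a smooth muscle actin-binding protein, rose by 0.92 ± 0.16 in mutants and by 1.60 ± 0.16 in normal dogs, and MCAM, an adhesion protein of vessel walls, by 0.78 ± 0.11 in mutants and by 1.05 ± 0.11 in normal dogs. CSPG4, a pericyte proteoglycan, changed by -0.43 ± 0.27 in mutants, without a call, and rose by 1.00 ± 0.27 in normal dogs. PDGFRB, the growth factor receptor of pericytes, changed by -0.24 ± 0.11 in mutants, without a call, and fell by 0.56 ± 0.11 in normal dogs. CNN1, a smooth muscle calponin, was the 1 marker of this list that fell in mutants, by 0.45 ± 0.13. Of 6 skeletal muscle markers, 1 rose, 1 fell and 4 were not called in mutants (median 0.12), and 3 rose, 1 fell and 2 were not called in normal dogs (median 0.42). The array mean of the skeletal muscle list was -0.59 to 1.40 in CNTF mutant, -0.63 to -0.03 in PBS mutant, -1.24 to -0.26 in CNTF normal and -1.05 to -0.50 in PBS normal eyes. The part of muscle or vessel cells in the DES change was not tested.

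**Figure D3:**
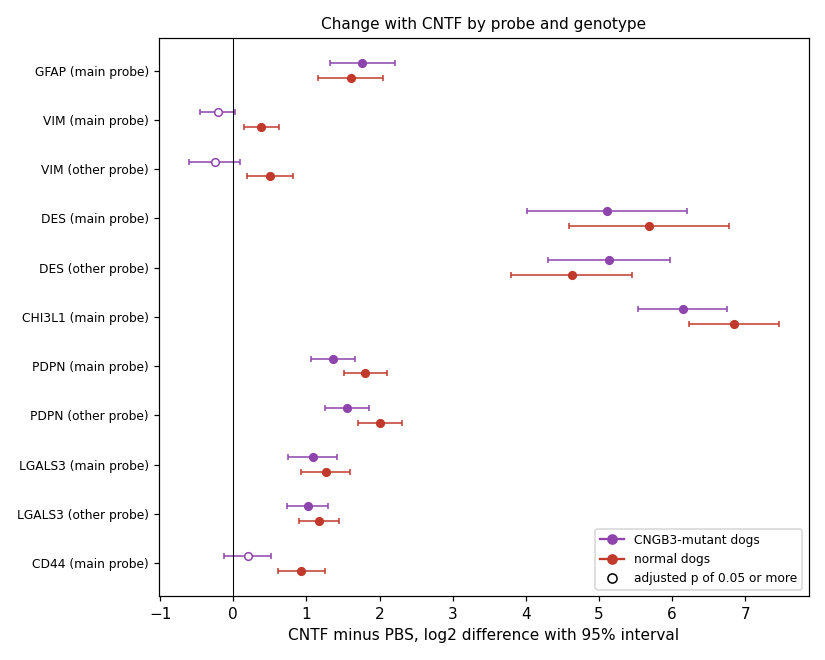
CNTF minus PBS as a log2 difference with its 95% interval (horizontal axis) for the 11 probes tested, in mutant and normal dogs. Filled points were called at an adjusted p under 0.05. CHI3L1 is drawn at its fitted value although its PBS arrays were below background. Both probes of DES, PDPN and LGALS3 gave changes of the same direction, and of the 7 genes only VIM lies on opposite sides of 0 in the genotypes.

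CHI3L1 is a chitinase-like glycoprotein that binds chitin without cutting it. In mutant dogs 1 to 5 it read -0.01, 1.46, 1.14, 0.89 and -0.35 in CNTF eyes, against -6.16, -4.76, -5.68, -5.29 and -5.70 in PBS eyes. In normal dogs it read 1.10, 0.78, 0.35, 0.73 and 1.51 in CNTF eyes, against -5.57, -5.48, -6.998, -5.20 and -6.51 in PBS eyes. The probe was above background on all 10 CNTF arrays and on 0 of the 10 PBS arrays, so only a lower bound on the change can be given. That bound was 31.2-fold in mutants and 50.8-fold in normal dogs, set against the dimmest signal well above background on each array. It is approximate, since brighter spots were not always marked as above background. The GFAP probe read 41.3 or more on all 5 CNTF mutant arrays and was marked on 4. The bound itself was not tested. The fitted change, which uses the PBS values below background, had a limma adjusted p of 2.11e-07 in mutants and 8.05e-08 in normal dogs. Background-corrected intensities before scaling were 376 to 1061 in CNTF mutant, 5.63 to 11.4 in PBS mutant, 503 to 1038 in CNTF normal and 4.64 to 14.7 in PBS normal eyes. CHI3L1 was the 1 gene of the 7 still called higher with slide as a block in place of the dog, in both genotypes. With slide and dog both as blocks it was not called.

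Of 4 other chitinase-like genes and receptors tested, 1 rose, 2 fell and 1 was not called in mutants, and 1 rose, 1 fell and 2 were not called in normal dogs. TMEM219, a membrane protein that takes part in CHI3L1 signalling, rose by 0.44 ± 0.09 in mutants and by 0.67 ± 0.09 in normal dogs. OVGP1, the oviduct glycoprotein of this family, fell by 1.02 ± 0.14 in mutants and by 0.85 ± 0.14 in normal dogs. CHID1 changed by 0.36 ± 0.14 in normal dogs and was not called.

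LGALS3 encodes galectin-3, a lectin that binds galactose-bearing glycans and is abundant in phagocytes and reactive glia. In mutant dogs 1 to 5 the main probe, at chr8:34026459-34026518 on the plus strand, read 1.78, 2.08, 1.93, 2.52 and 2.27 in CNTF eyes, against 0.55, 1.11, 1.00, 1.27 and 1.22 in PBS eyes. The normal dogs had values of 2.097, 1.53, 2.15, 2.06 and 1.77 in CNTF eyes, against 0.70, 0.92, 0.25, 0.91 and 0.52 in PBS eyes. Every CNTF eye was higher than every PBS eye, in both genotypes. LGALS3 rose by 1.09 ± 0.15 in mutants (2.12-fold, limma adjusted p = 0.000306) and by 1.26 ± 0.15 in normal dogs (2.40-fold, limma adjusted p = 8.83e-05). The second probe, at chr8:34023330-34026390, rose by 1.02 ± 0.13 in mutants and by 1.17 ± 0.13 in normal dogs, and both probes were above background on 20 arrays. Within slide 3 the CNTF normal arrays were higher than the PBS mutant arrays by 0.57, and a fit with slide in place of the dog gave 0.35 ± 0.42 in mutants and 0.94 ± 0.42 in normal dogs, neither called.

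Of 5 other genes tested on a list of galectins and galectin-related proteins, 3 rose, 0 fell and 2 were not called in each genotype, and the 3 were not the same genes. LGALS9, a galectin induced by interferon, rose by 2.33 ± 0.25 in mutants and by 2.73 ± 0.25 in normal dogs. LGALS1 rose by 0.57 ± 0.11 in mutants and by 0.68 ± 0.11 in normal dogs. LGALS3BP, a secreted glycoprotein that binds galectin-3, changed by 0.34 ± 0.17 in mutants, without a call, and rose by 0.72 ± 0.17 in normal dogs. LGALSL, a galectin-like protein, rose by 0.42 ± 0.11 in mutants and changed by 0.19 ± 0.09 in normal dogs, without a call.

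PDPN encodes podoplanin, a mucin-like membrane protein known from lymphatic vessels, podocytes and reactive astrocytes. In mutant dogs 1 to 5 the main probe read 1.41, 1.43, 0.57, 1.09 and -0.42 in CNTF eyes, against -0.04, 0.27, -0.76, -0.36 and -1.84 in PBS eyes. In normal dogs it read 0.47, 0.46, 0.30, 0.53 and 1.03 in CNTF eyes, against -0.89, -0.97, -1.64, -1.47 and -1.27 in PBS eyes. Mutant dog 5 was the lowest in both eyes, and its CNTF eye lay below the PBS eyes of mutant dogs 1, 2 and 4, so the mutant groups overlapped although the CNTF eye was higher in every dog. PDPN rose by 1.36 ± 0.13 in mutants (2.57-fold, limma adjusted p = 2.49e-05) and by 1.81 ± 0.13 in normal dogs (3.50-fold, limma adjusted p = 2.64e-06). Within slide 3 the difference was 1.57, and a fit with slide in place of the dog gave 2.35 ± 0.84 in mutants and 2.66 ± 0.84 in normal dogs, neither called.

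The spread among mutants was wider on the main PDPN probe than on the second. Its SD over the mutant dogs was 0.77 in CNTF eyes and 0.82 in PBS eyes, against 0.28 in CNTF eyes and 0.32 in PBS eyes of normal dogs. On the second probe, at chr2:86451164-86451220, the mutant SD was 0.15 in CNTF eyes and 0.29 in PBS eyes. That probe rose by 1.56 ± 0.14 in mutants (2.94-fold, limma adjusted p = 1.05e-05) and by 2.002 ± 0.14 in normal dogs (4.01-fold, limma adjusted p = 1.41e-06), with no overlap of the groups. Both probes were above background on all 20 arrays. The files link the main probe to 2 Ensembl transcripts and the second probe to a RefSeq transcript, and no transcript to both. The dog order on the main probe, with dogs 1 and 2 high and dog 5 low, was seen in both eyes. On the second probe, too, mutant dogs 1 and 2 were highest and dog 5 lowest in both eyes.

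**Figure D4:**
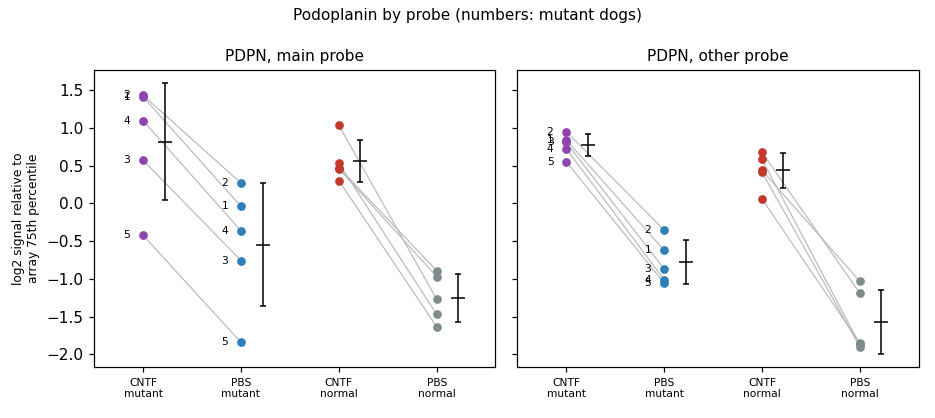
Log2 signal relative to the array's 75th percentile (vertical axis) of the main and the second podoplanin probe in the 4 groups, with mutant dogs numbered, lines joining the eyes of a dog and black marks for mean and SD of 5 arrays. Mutant dog 5 lies far below the other mutants in both eyes on the main probe, and closer to them on the second probe.

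CD44 is the receptor for hyaluronan and osteopontin on glia and leukocytes. In mutant dogs 1 to 5 the main probe, at chr18:35758057-35758116 on the minus strand, read -1.91, -1.66, -1.86, -1.79 and -2.31 in CNTF eyes, against -2.15, -1.61, -2.13, -2.07 and -2.56 in PBS eyes. The normal dogs had values of -1.71, -1.82, -1.55, -2.04 and -1.81 in CNTF eyes, against -2.63, -2.66, -3.18, -2.43 and -2.66 in PBS eyes. The mutant groups overlapped, and mutant dog 2 had a slightly lower value in its CNTF eye, while the normal groups lay apart. CD44 changed by 0.20 ± 0.15 in mutants (limma adjusted p = 0.347, 95% interval -0.12 to 0.52) and rose by 0.93 ± 0.15 in normal dogs (1.90-fold, limma adjusted p = 0.000555). Within slide 3 the difference was 0.55, and the call in normal dogs was lost with slide in place of the dog (1.25). The probe was above background on 20 arrays. A second CD44 probe, at chr18:35774173-35775113, was above background on 2 of 20 arrays and was not tested.

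The ligands and cytoskeletal linkers of CD44 and podoplanin were followed through a list of 18 genes, 10 of them tested. In mutants 5 rose, 1 fell and 4 were not called (median 0.24), and in normal dogs 5 rose, 0 fell and 5 were not called (median 0.43). EZR, ezrin, which ties both proteins to actin, rose by 2.11 ± 0.13 in mutants and by 2.32 ± 0.13 in normal dogs. TNFAIP6, which cross-links hyaluronan, rose by 1.88 ± 0.15 in mutants and by 1.84 ± 0.15 in normal dogs. ICAM1, an adhesion protein for leukocytes, rose by 1.76 ± 0.18 in mutants and by 1.92 ± 0.16 in normal dogs. SPP1, osteopontin, rose by 6.13 ± 0.75 in mutants and by 4.68 ± 0.75 in normal dogs, but was above background on only 1 PBS mutant and 3 PBS normal arrays, so the sizes are uncertain. MMP9, a matrix protease that binds CD44, fell by 0.89 ± 0.14 in mutants and changed by -0.09 ± 0.14 in normal dogs.

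Of 17 other intermediate filament genes and linkers tested, 3 rose, 5 fell and 9 were not called in mutants (median -0.35), and 6 rose, 6 fell and 5 were not called in normal dogs (median 0.10). LMNA, the nuclear lamin A/C, rose by 1.19 ± 0.11 in mutants and by 1.40 ± 0.11 in normal dogs. PRPH, the neuronal filament peripherin, rose by 1.01 ± 0.10 in mutants and by 1.07 ± 0.10 in normal dogs. BFSP1, a lens filament, fell by 1.25 ± 0.12 in mutants and by 0.81 ± 0.12 in normal dogs. NEFL, the light neurofilament, fell by 0.63 ± 0.16 in mutants and by 0.76 ± 0.16 in normal dogs. PLEC, plectin, which links filaments to each other, changed by 0.32 ± 0.12 in mutants, without a call, and rose by 0.68 ± 0.12 in normal dogs.

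Of 17 other reactive astrocyte genes tested, 10 rose, 3 fell and 4 were not called in mutants (median 0.56), and 10 rose, 1 fell and 6 were not called in normal dogs (median 0.73). TIMP1, an inhibitor of matrix proteases, rose by 3.24 ± 0.13 in mutants and by 3.41 ± 0.13 in normal dogs. S100A10, a partner of annexin, rose by 1.46 ± 0.10 in mutants and by 1.67 ± 0.10 in normal dogs. SRGN, a proteoglycan of secretory granules, rose by 3.20 ± 0.27 in mutants and by 2.82 ± 0.27 in normal dogs. These 3 were named because they had the lowest adjusted p of the list in normal dogs, and the genes that fell were only counted. The part of microglia, macrophages and other cells in these changes was not tested. The description of the probe counted under SERPINA3 names another member of that family.

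Markers of Müller cells and astrocytes were counted in the same way. Of 10 Müller cell markers tested without VIM, 2 rose, 3 fell and 5 were not called in mutants (median 0.11), and 6 rose, 2 fell and 2 were not called in normal dogs (median 0.62). APOE, a lipid carrier, rose by 1.36 ± 0.15 in mutants and by 1.79 ± 0.15 in normal dogs. GLUL, glutamine synthetase, fell by 1.96 ± 0.21 in mutants and by 0.96 ± 0.21 in normal dogs. SOX9, a glial transcription factor, changed by 0.19 ± 0.16 in mutants, without a call, and rose by 0.81 ± 0.16 in normal dogs. Of 5 astrocyte markers tested without GFAP, 1 rose, 3 fell and 1 was not called in mutants, and 1 rose, 2 fell and 2 were not called in normal dogs. S100B was above background on 0 CNTF arrays and on 4 of 5 PBS arrays of each genotype.

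Markers of other cells were set beside these changes. Of 9 rod, cone and inner retinal genes tested, 1 rose and 8 fell in mutants (median -0.79), and 1 rose, 6 fell and 2 were not called in normal dogs (median -0.86). The part of this fall in the changes of the glial genes, measured relative to each array's percentile, was not tested. Of 13 microglia and macrophage markers tested, 12 rose in mutants (median 3.21) and 13 rose in normal dogs (median 3.34), with 0 falling in either. The array mean of this list was 0.76 to 1.60 in CNTF mutant, -1.69 to -1.08 in PBS mutant, 0.84 to 1.45 in CNTF normal and -2.23 to -1.55 in PBS normal eyes. P2RY12 and TMEM119, which mark resident microglia, did not pass the background filter. Of 10 lymphocyte and granulocyte markers 4 rose and 2 fell in each genotype. Of 7 fibroblast markers 4 rose and 1 fell in each genotype, with COL1A2 up by 2.51 ± 0.20 in mutants and by 3.45 ± 0.20 in normal dogs. COL3A1, 1 of the 4, was above background on 5 CNTF arrays but only 1 PBS array of each genotype. It passed the background filter only through the CNTF groups, so its place in the count depends in part on being high there. COL1A1 changed by -0.35 ± 0.15 in mutants and by -0.29 ± 0.15 in normal dogs, without a call. PDGFRA, the marker called lower, changed by -0.86 ± 0.10 in mutants and by -0.53 ± 0.10 in normal dogs. Of 6 endothelial and lymphatic markers 0 rose and 3 fell in mutants, and 2 rose and 2 fell in normal dogs. Of 9 pigment epithelium and choroid markers 0 rose and 2 fell in mutants, and 0 rose and 3 fell in normal dogs, while 0 of 2 red cell markers were called in either. LGALS3, CD44 and CHI3L1 are active in macrophages too, and the part of these cells in their changes was not tested.

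**Figure D5:**
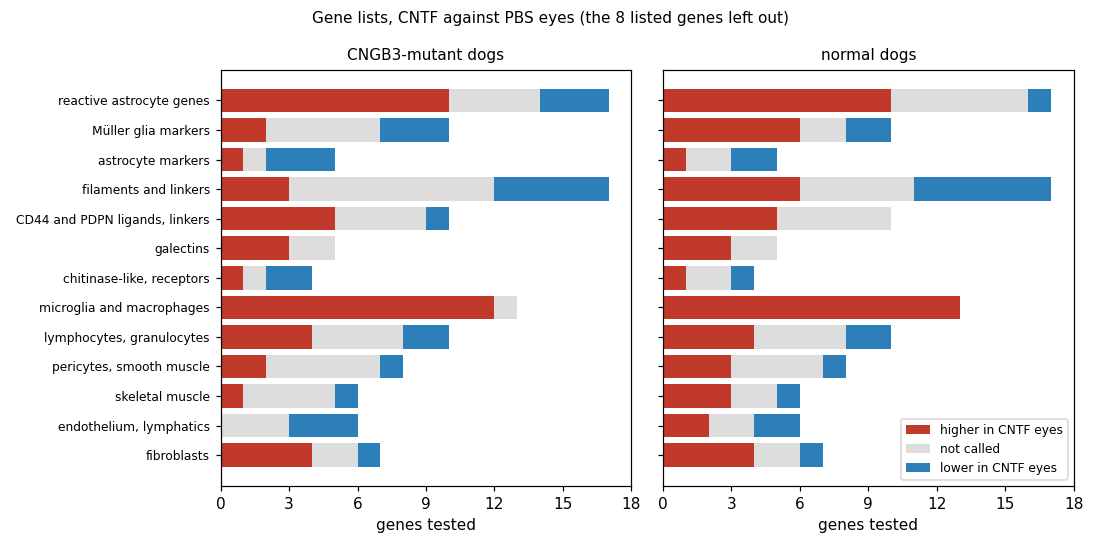
Number of genes tested (horizontal axis) on 13 lists, the 8 listed genes left out, that were higher, not called or lower in CNTF eyes, in mutant dogs on the left and normal dogs on the right. Microglia and macrophage markers rose nearly throughout (12 of 13 in mutants and 13 of 13 in normal dogs), and filament genes were called in both directions.

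The second comparison asks whether CNTF changed these genes differently in mutants. The difference of the changes (mutant minus normal) was called for 0 of the 7 genes and for 0 of 29336 probes (0.0%), although 3 of the 7 genes and 10168 probes had an unadjusted p under 0.05 in limma. Leaving out CHI3L1, whose PBS levels were below background in both genotypes, it was negative for 5 of 6 genes, with a median of -0.50 over the 6 and -0.06 over all probes. The largest relative to its error was that of VIM, -0.60 ± 0.15 (95% interval -0.93 to -0.26, limma adjusted p = 0.103), followed by CD44 at -0.73 ± 0.21 (95% interval -1.19 to -0.28, limma adjusted p = 0.103). PDPN differed by -0.44 ± 0.19, and its second probe by -0.45 ± 0.19. The second VIM probe differed by -0.76 ± 0.21 (limma adjusted p = 0.103). GFAP differed by 0.16 ± 0.28 (95% interval -0.47 to 0.78) and LGALS3 by -0.18 ± 0.21 (95% interval -0.64 to 0.29). The DES probes pointed oppositely, at -0.57 ± 0.70 for the main and 0.51 ± 0.53 for the dimmer probe. The interval was widest for DES.

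The third comparison asks whether the mutant retina differs without CNTF. In PBS eyes the main probes of the 6 genes other than CHI3L1, which was below background in both groups, averaged higher in mutants than in normal dogs, where 50.7% of all probes had a positive difference. Of the 7 genes 0 were called against a background of 0.0272%. That background was 8 probes, against 6308 without normal dog 1, and without any 1 dog 0 of the 7 were called. An unadjusted p under 0.05 in limma was found for 2 of the 7 genes and for 34.6% of all probes. The median difference of the 6 was 0.58, and that of all probes was 0.01. CD44 averaged -2.10 ± 0.34 in mutants and -2.71 ± 0.28 in normal dogs (SD, n = 5 each), a difference of 0.61 ± 0.19 (limma adjusted p = 0.0952). PDPN averaged -0.55 ± 0.82 in mutants and -1.25 ± 0.32 in normal dogs (SD, n = 5 each), a difference of 0.70 ± 0.34 on the main probe and 0.79 ± 0.21 on the second. GFAP differed by 0.56 ± 0.35, DES by 1.00 ± 0.71, LGALS3 by 0.37 ± 0.18 and VIM by 0.31 ± 0.14. The GFAP probe was above background on only 2 PBS mutant and 3 PBS normal arrays, so its difference and its part in the median are uncertain. Leaving out 1 dog in turn gave 0.47 to 1.66 for DES, 0.33 to 0.74 for GFAP, 0.50 to 1.02 for PDPN, 0.27 to 0.49 for LGALS3, 0.25 to 0.38 for VIM and 0.49 to 0.72 for CD44. The mutant and normal groups overlapped for each gene, whereas 3.14% of all probes were higher in mutants without overlap. Within slide 2, which holds 3 PBS mutant arrays and 1 PBS normal array, the difference was 0.70 for CD44, 1.09 for PDPN, 1.24 for DES, 0.37 for LGALS3, 0.39 for VIM and -0.04 for GFAP. All normal dogs were male, so sex and genotype can be told apart only through the 2 male mutants. By the sample labels every mutant was also older than every normal dog. Age at the labelled values and genotype thus cannot be told apart, in PBS or in CNTF eyes.

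The genotypes were also compared in CNTF eyes. Of the 7 genes 4 averaged higher in mutants and 3 lower, with a median difference of 0.19 over the 7 and -0.02 over all probes. Of the 7, 0 were called against a background of 0.00681%. An unadjusted p under 0.05 in limma was found for 0 of the 7 genes and for 5.61% of all probes. GFAP averaged -2.43 ± 0.86 in mutants and -3.14 ± 0.63 in normal dogs (SD, n = 5 each), a difference of 0.72 ± 0.42. VIM averaged 6.92 ± 0.23 in mutants and 7.20 ± 0.18 in normal dogs (SD, n = 5 each), a difference of -0.29 ± 0.14. CD44 differed by -0.12 ± 0.15, DES by 0.43 ± 0.39, CHI3L1 by -0.27 ± 0.35, LGALS3 by 0.19 ± 0.17 and PDPN by 0.26 ± 0.33. These comparisons share arrays with those of CNTF against PBS. Within slide 4, which holds 1 CNTF mutant and 3 CNTF normal arrays, the difference was -0.42 for GFAP, -0.61 for VIM, -0.66 for DES, -0.21 for LGALS3 and 0.79 for PDPN.

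The genes whose pattern was most like each of the 7 were found among 10289 named genes with values on all 20 arrays, by the root mean square (RMS) difference in log2 signal after centring each gene on its mean. For GFAP these were MEN1 (RMS difference 0.58), MYBPC2 and a glutathione S-transferase A3 probe, against a spread of 1.09 for GFAP itself. For VIM they were ST6GALNAC6 (RMS difference 0.14), RAG1 and RNF10, against a spread of 0.24. For DES they included CYP24A1 (RMS difference 0.67), which inactivates vitamin D, and AQP3, a water channel (RMS difference 0.78), against a spread of 2.89. For CHI3L1 they included C3, the central complement protein (RMS difference 0.56), and DPEP1 (RMS difference 0.70), against a spread of 3.30. For PDPN they were ARRB1 (RMS difference 0.37), UROD and EFEMP2, for LGALS3 DUSP14 (RMS difference 0.23), LOC475156 and OPN4, and for CD44 RNF181 (RMS difference 0.17), YIPF1 and KRTCAP2. The 20 arrays share the same treatments and slides.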

How the data were processed

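The array files hold the signal intensity of each spot, which per the file headers Agilent Feature Extraction 9.5.3.1 corrected for background without scaling between arrays. The deposited matrix holds log2 values and served only as an alternative. Per the submitters' processing notes, Partek 6.4 was also used, in a role not given there. Control spots (1417 an array) and outlier spots were left out and spots of a probe averaged. Log2 signals were set relative to each array's 75th percentile. The 29545 of 43603 probes that 4 or more of the 5 arrays of any group marked as well above background were kept.

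Tests used limma 3.58.1 in R 4.3.3, two-sided, in a model of all arrays with a term per dog and, for each genotype, a CNTF term, and tests of genotype on 10 arrays each. The tests were checked on simulated data. Figures used Python 3.11.15 and matplotlib 3.10.9. Eyes were paired because the labels match number, sex, age and genotype. As a check, deviations from the group means correlated between the eyes of a dog at -0.15 to 0.69 over 27888 probes and at 0.17 to 0.73 over the 500 most variable. Among the PBS eyes of its genotype, a CNTF eye correlated best with that of its own dog in 4 of 10 dogs over the 27888 probes. Over the 500 probes it did so in 9 of 10 dogs. Gene names came from the files and a table of names of assembly UU_Cfam_GSD_1.0.

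Some genes that meet the rule below or stand on a list are not reported here. The genes, the lists and the alternatives were chosen with earlier results of these data known. Named genes are the members, the 3 most alike in pattern to each, and, from each list, the 3 with the lowest adjusted p in normal dogs plus those a count turns on. TAGLN, MCAM, CSPG4, CNN1, PDGFRB, NEFL, PLEC, MMP9, SPP1, APOE, GLUL, SOX9, S100B, SERPINA3, P2RY12, TMEM119, COL1A2, COL3A1, COL1A1 and PDGFRA fall outside that rule or come from marker lists and were picked after their values were seen.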

Additional observations from a re-analysis of the deposited data

Results flagged for a closer look

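VIM differed between the genotypes in a way that drew attention: its signal was lower in the CNTF eye of every mutant dog and higher in the CNTF eye of every normal dog. The difference of the changes, mutant minus normal, was -0.60 on the log2 scale, and it did not pass the adjusted threshold (limma adjusted p = 0.103). The probe was saturated on 2 CNTF normal arrays. The direction was the same on the second VIM probe, which was saturated on none, but normal dog 1 differed there by only 0.0024. The call in normal dogs was lost with quantile normalization and in the deposited values. In mutants the direction also depends on scaling to the array's 75th percentile. That percentile was 376.0 in the CNTF eye and 291.0 in the PBS eye of mutant dog 2. In mutant dog 3 it was 482.1 in the CNTF eye and 359.2 in the PBS eye. None of the 28 groups of 5 arrays of the main probes held an array whose gap passed Dixon's critical value of 0.71, which chance passes in about 1 in 20.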

How the results depend on the processing

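Called CNTF changes of the 7 genes kept their direction under every setting tried except with slide in place of the dog and within slide 3, where GFAP turned. With slide in place of the dog, 797 probes were called in mutants, 1148 in normal dogs and 69 for the difference, of the 7 genes 1 was called in each genotype, and GFAP was -0.58 in mutants, -0.20 in normal dogs and -0.39 for the difference. Within slide 3 GFAP was -0.16, and VIM, not called in mutants, was 0.05. With slide block and replicate block together 47 probes were called in mutants, 0 in normal dogs and 45 for the difference, with 0 genes, and the GFAP difference was -0.51. In normal dogs 4761 probes then had an unadjusted p under 0.05 in limma. Without the replicate block for the dog, limma called 6668 probes in mutants and 11520 in normal dogs, and no call among the 7 genes changed. Normexp called 3298 probes in mutants, 56.0% of them higher against 40.2% in the reported fit, and 5760 in normal dogs, 61.1% higher against 46.0%, and it moved the median of all probes to 0.17 in mutants and 0.09 in normal dogs. Keeping only probes above background on all 20 arrays left 2 genes called in mutants and 4 in normal dogs, since fewer were tested. Uncalled signs also turned for the GFAP difference with quantile normalization (-0.023) and deposited values (-0.018), for the DES difference (0.51) and PBS genotype value (-0.023) on the dimmer probe, for GFAP in PBS eyes with slide (-0.036), for CD44 in CNTF eyes with normexp (0.23), and in CNTF eyes with slide for GFAP (-0.42), DES (-0.66) and LGALS3 (-0.21). With slide as a block, the genotype values come only from slide 2 in PBS eyes and only from slide 4 in CNTF eyes. Slide 2 holds 1 PBS normal array, and slide 4 holds 1 CNTF mutant array. The cause of these shifts was not tested.

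In PBS eyes 8 probes were called between genotypes, and 1 with quantile normalization, 2 with normexp, 1 in deposited values, 4 without a filter, 3 with the strict filter, 60 with all arrays, 2 with slide and 30 in males only. In CNTF eyes 2 were called, and 0, 0, 0, 0, 0, 18, 104 and 5 under the same settings. Leaving out a dog gave 6386 to 8602 probes in mutants, 10957 to 14945 in normal dogs, 0 to 4 for the difference, 1 to 6308 in PBS eyes (the highest without normal dog 1) and 0 to 60 in CNTF eyes, and 5 genes in mutants and 6 to 7 in normal dogs. Dim probes limit GFAP, CHI3L1 and the second DES probe.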
